A study of Saccharomyces cerevisiae with 12 samples.

Results

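The genes described here are 6 stress genes of the yeast Saccharomyces cerevisiae: the small heat shock protein genes HSP26 (YBR072W) and HSP42 (YDR171W), HSP12 (YFL014W), and the hydrophilin genes SIP18 (YMR175W), GRE1 (YPL223C) and STF2 (YGR008C). They are 6 of the 5994 open reading frames in the deposited table. They were chosen by name, with their mutant over wild-type ratios in these arrays already known. Their ratios within a group are therefore a description, and no test of theirs below is independent evidence.

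Small heat shock proteins are chaperones that need no ATP. They assemble into large oligomers and hold unfolding proteins in a state from which the ATP-driven chaperones can refold them. Hydrophilins are small, glycine-rich and strongly hydrophilic proteins that accumulate when cells lose water. In yeast many of these genes are transcribed through the general stress factors Msn2 and Msn4, which protein kinase A restrains in growing cells, and some also through the heat shock factor Hsf1 or the osmotic stress kinase Hog1.

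The study compared a hal4hal5 mutant with its wild type on 12 two-colour arrays, with both RNAs on each array. HAL4 (listed as SAT4) and HAL5 encode related protein kinases that keep potassium transporters at the plasma membrane. The 3 groups of 4 arrays were BY4741 in YPD at pH 4.5, W303 in YPD at pH 4.5 and W303 in YPD at pH 6.0, where BY4741 and W303 are laboratory strain backgrounds. All cultures grew in this rich medium at 28 °C to log phase, and per the design text the replicates were biological. No further allele of either background is given in the sources used here, nor how many clones of the mutant were used.

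Each deposited value was read as the log2 ratio of the 2 dyes and turned so that a positive value means more RNA in the mutant. The log base is not stated. Values between -7.15 and 5.55 fit base 2, and a natural logarithm would make every fold printed here too small. An array held 4418 to 5696 values, and the median correlation between arrays of a group was 0.62 in BY4741. In W303 it was 0.91 at the lower pH and 0.49 at the higher. Replicate 3 at pH 6.0 stood furthest from its group, with the fewest values and a mean correlation of 0.19 with the others. The direction rests on the dye labels. Of 11 pairs of arrays with opposite dyes within a group, 10 correlated negatively as deposited. The mutant had less SAT4 RNA on 9 of 10 arrays with a value, from -1.74 to 0.62, and less HAL5 RNA on 9 of 11, from -0.78 to 0.42. In W303 at pH 4.5 both were close to 0. On replicates 1 to 4 there, SAT4 was at -0.09, -0.18, -0.23 and -0.18, and HAL5 at 0.42, -0.265, -0.21 and -0.32.

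HSP26 encodes the small heat shock protein that assembles into large shells and becomes active on heating. In W303 at pH 4.5 its log2 ratios on replicates 1 to 4 were 4.71, 3.89, 4.61 and 5.02. All 4 arrays were far above 0, with a mean of 4.56 ± 0.48 (SD, n = 4), 23.6-fold more RNA in the mutant. This was the second highest mean of the 5501 genes measured on at least 3 arrays of the group (rank 2). In BY4741 the ratios of HSP26 were 1.04, 1.46, 0.37 and -0.75. Replicate 4 was below 0 and the other 3 arrays above it, so the mean of 0.53 ± 0.96 (SD, n = 4) was smaller than its spread. Without replicate 4 the mean of HSP26 was 0.96, and without replicate 2 it was 0.22. At pH 6.0 only replicate 1 gave a value for HSP26, 0.32.

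HSP42 encodes the other cytosolic small heat shock protein, which also works in unstressed cells and gathers misfolded proteins into deposits. Its ratios in W303 at pH 4.5 were 0.48, 0.67, 0.83 and 0.83, with a mean of 0.70 ± 0.16 (SD, n = 4), 1.63-fold. All 4 arrays were above 0, at rank 475 of the 5501 genes. In BY4741 the ratios of HSP42 were 0.59, 0.87, 0.21 and -0.12, a mean of 0.39 ± 0.43 (SD, n = 4) that fell to 0.23 without replicate 2. Replicate 4 was again the only array below 0. At pH 6.0 the ratios of HSP42 were 0.06, -0.23, 0.17 and -0.20, on both sides of 0, with a mean of -0.05 ± 0.20 (SD, n = 4). The arrays above 0 were replicates 1 and 3, which carried the mutant in Cy3, and those below 0 carried it in Cy5. The dye means for HSP42 at pH 6.0 were 0.12 and -0.21 respectively, and a dye term fitted in this group did not pass the threshold for HSP42 (limma adjusted p = 0.618).

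HSP12 encodes a small hydrophilic protein that folds on membranes and stabilises them. It was the one gene of the 6 with a log2 ratio above 1 on all 12 arrays. Its ratios were 3.97, 4.02, 4.40 and 4.30 in W303 at pH 4.5, with a mean of 4.17 ± 0.21 (SD, n = 4), 18.0-fold (rank 4 of 5501). In BY4741 the ratios of HSP12 were 2.09, 2.82, 1.91 and 1.70, with a mean of 2.13 ± 0.49 (SD, n = 4), 4.38-fold (rank 5 of 5461). At pH 6.0 they were 2.73, 2.38, 2.04 and 1.495, with a mean of 2.16 ± 0.53 (SD, n = 4), 4.47-fold (rank 7 of 4856). The lowest value of HSP12 in W303 at pH 4.5 lay above the highest value of either other group.

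SIP18 and GRE1 encode paralogous hydrophilins, and SIP18 contributes to the survival of yeast on drying. The ratios of SIP18 in W303 at pH 4.5 were 4.18, 2.28, 3.64 and 3.401, with a mean of 3.38 ± 0.80 (SD, n = 4), 10.4-fold (rank 8). The lowest was replicate 2, the only array of that group with the mutant in Cy3. Replicate 2 was also the lowest there for HSP26 and STF2, whereas for HSP12 and HSP42 the lowest was replicate 1. GRE1 was measured there on replicates 1, 3 and 4, at 1.71, 2.26 and 1.81, with a mean of 1.93 ± 0.29 (SD, n = 3), 3.80-fold (rank 64), all with the mutant in Cy5. In BY4741, SIP18 gave a value on replicate 3 alone, 0.88, and GRE1 on replicates 3 and 4, at 0.35 and 0.32. At pH 6.0 neither gene gave a value. Signal shared between the probes of these paralogs was not tested, since no probe sequence was used here.

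STF2 encodes a hydrophilin that was first described as a factor stabilising the inhibited mitochondrial ATP synthase. Its ratios in W303 at pH 4.5 were 2.26, 1.82, 2.13 and 2.28, with a mean of 2.12 ± 0.21 (SD, n = 4), 4.36-fold (rank 41). In BY4741 they were 0.59, 1.27, 0.62 and 0.35, with a mean of 0.71 ± 0.40 (SD, n = 4), 1.63-fold. At pH 6.0 they were 0.70, 0.13, 1.14 and 0.33, with a mean of 0.58 ± 0.44 (SD, n = 4), 1.49-fold. STF2 was thus above 0 on all 12 arrays, with the 4 arrays of W303 at pH 4.5 above all the others. At pH 6.0 its 2 arrays with the mutant in Cy3 had a mean of 0.92 and the 2 in Cy5 a mean of 0.23.

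**Figure D1:**
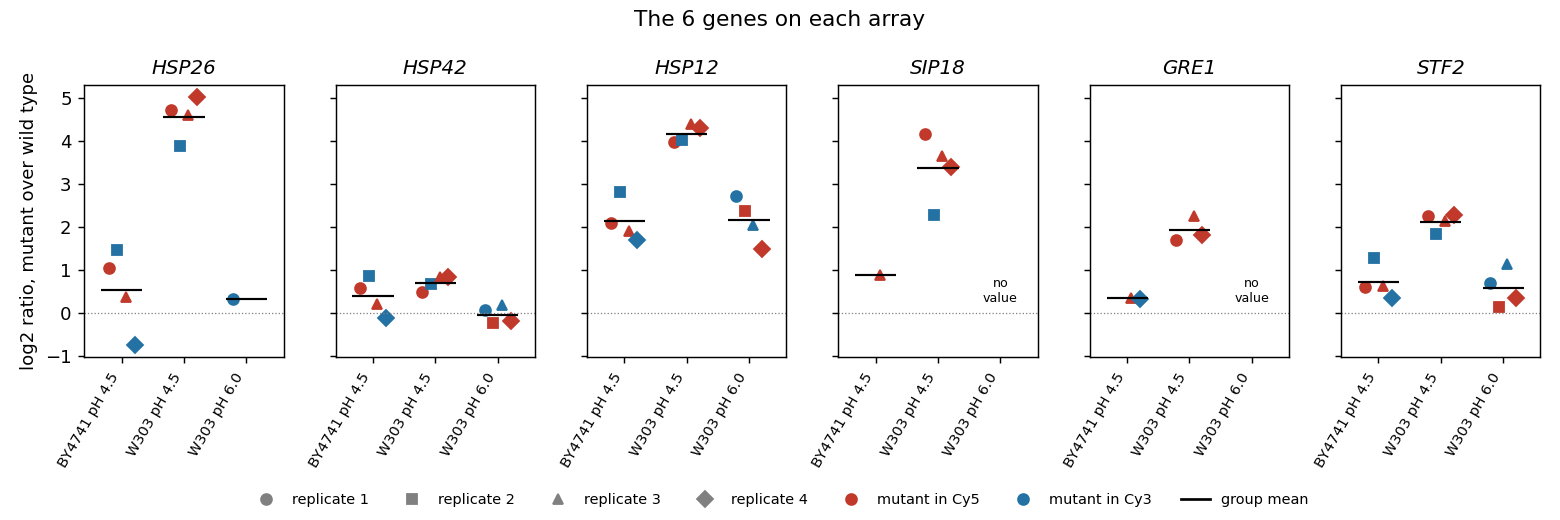
Log2 ratio of mutant over wild-type RNA (vertical axis) for each of the 6 genes on each array, in 3 groups of 4 arrays, coloured by the dye of the mutant, with the group mean as a line. HSP26, HSP12, SIP18 and STF2 sit highest in W303 at pH 4.5, HSP42 stays within 1 of 0 in every group, and SIP18 and GRE1 have no point at pH 6.0.

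The missing values limit what can be said of 3 of these genes at pH 6.0. Of the 5501 genes measured on at least 3 arrays of W303 at pH 4.5, 212 (3.85%) had at most 1 value at pH 6.0, and HSP26, SIP18 and GRE1 were among them. The sources used here do not say which filter removed spots, so a missing value is not a low ratio or a low level. Of the 4 genes measured on at least 3 arrays of BY4741, HSP12 and STF2 passed the limma test of the ratio against 0 (adjusted p below 0.05), as did 31.4% of all genes tested, 15.9% higher and 15.4% lower in the mutant. In W303 at pH 4.5 all 6 were past that threshold, as were 69.2% of all genes, and at pH 6.0 HSP12 alone of the 3 measured, against 3.36% of all genes, 1.92% higher and 1.44% lower. These calls come from the ratios the genes were chosen on, and nothing is read from them.

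Within W303 at pH 4.5 the means ran from HSP26 through HSP12, SIP18, STF2 and GRE1 to HSP42. Neighbours at the top of that order were not separated by their spread on the same arrays. HSP26 exceeded HSP12 by 0.39 ± 0.42 (SD) and was higher on 3 of 4 arrays, and HSP12 exceeded SIP18 by 0.79 ± 0.79, also on 3 of 4. SIP18 exceeded STF2 by 1.25 ± 0.62. STF2 and its neighbour GRE1 overlapped, with a difference of GRE1 minus STF2 of -0.30 ± 0.37 over 3 arrays, whereas GRE1 was above HSP42 by 1.21 ± 0.22. The small heat shock protein genes were furthest apart there: HSP26 exceeded HSP42 by 3.86 ± 0.47, higher on 4 of 4 arrays. In BY4741 the same difference was 0.14 ± 0.55. The paralogs SIP18 and GRE1 differed by 1.81 ± 0.58 on the 3 arrays that measured both. HSP12 exceeded STF2 by 2.05 ± 0.25 in W303 at pH 4.5, by 1.42 ± 0.12 in BY4741 and by 1.58 ± 0.65 at pH 6.0. In BY4741 the order was HSP12, STF2, HSP26 and HSP42, and at pH 6.0 it was HSP12, STF2 and HSP42. The ratio of HSP42 minus that of STF2 was -0.32 ± 0.21 (SD) in BY4741 and -0.63 ± 0.25 at pH 6.0. All of these are differences of ratios, not of RNA levels.

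Whether the mutant effect differed between backgrounds and between media was tested on the differences of these ratios, with limma fitted to all 12 arrays and genes measured on at least 3 arrays of every group. HSP12, STF2 and HSP42 could be tested. They were named with their group ratios known, so the tests are no independent evidence, and both comparisons share the 4 arrays of W303 at pH 4.5. HSP12 had a larger ratio in W303 than in BY4741 at pH 4.5 by 2.04 ± 0.27 (SE) on the log2 scale, a 4.11-fold difference (limma adjusted p = 5.3e-04). STF2 was larger in W303 by 1.42 ± 0.23 (SE), 2.67-fold (limma adjusted p = 0.00196). HSP42 differed by 0.31 ± 0.19 (SE), with a 95% interval of -0.09 to 0.72 that includes 0 (limma adjusted p = 0.255). Of all genes tested, 20.4% differed between the backgrounds, 10.9% with the larger and 9.55% with the smaller value in W303. HSP26 lacked pH 6.0 values and could be tested only in a fit of the 8 arrays at pH 4.5. There its ratio was larger in W303 by 4.03 ± 0.41 (SE), 16.3-fold, with a 95% interval of 3.13 to 4.93 (limma adjusted p = 1.29e-04), in a fit that called 38.1% of all genes. That fit had no dye term. The mutant was in Cy5 on 3 arrays of W303 and 2 of BY4741, and HSP26 was at 3.89 on the 1 Cy3 array of W303.

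Between media in W303, all 3 testable genes had lower ratios at pH 6.0 than at pH 4.5. HSP12 was lower by 4.02-fold, a difference of -2.01 ± 0.27 (SE; limma adjusted p = 3.58e-04). STF2 differed by -1.55 ± 0.23 (SE), 2.92-fold (limma adjusted p = 6.37e-04), and HSP42 by -0.75 ± 0.19 (SE), 1.68-fold (limma adjusted p = 0.0125). Without replicate 3 at pH 6.0, which stood apart, the differences were -1.97, -1.73 and -0.83, and the means at pH 6.0 were 2.20 for HSP12, 0.39 for STF2 and -0.12 for HSP42. Of all genes tested, 24.0% differed between the media and 13.2% were lower at pH 6.0. The arrays of the 3 genes did not overlap between the media. Among all genes measured on all of these arrays, 14.0% were above their pH 6.0 values on every array at pH 4.5. Between backgrounds HSP26, HSP12 and STF2 did not overlap, as was so for 20.2% of genes, while HSP42 did. HSP12 and STF2 were above both other groups on every array, as were 8.10% of genes. The spread was unequal between the groups, and fits of the 2 groups alone kept each of these calls: HSP12 had limma adjusted p = 1.37e-04 between backgrounds and 0.00118 between media, STF2 4.49e-04 and 0.00225, and HSP42 0.2005 and 0.00634. These fits still pooled the spread of the 2 groups compared, so they do not account for a spread that differs between them.

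**Figure D2:**
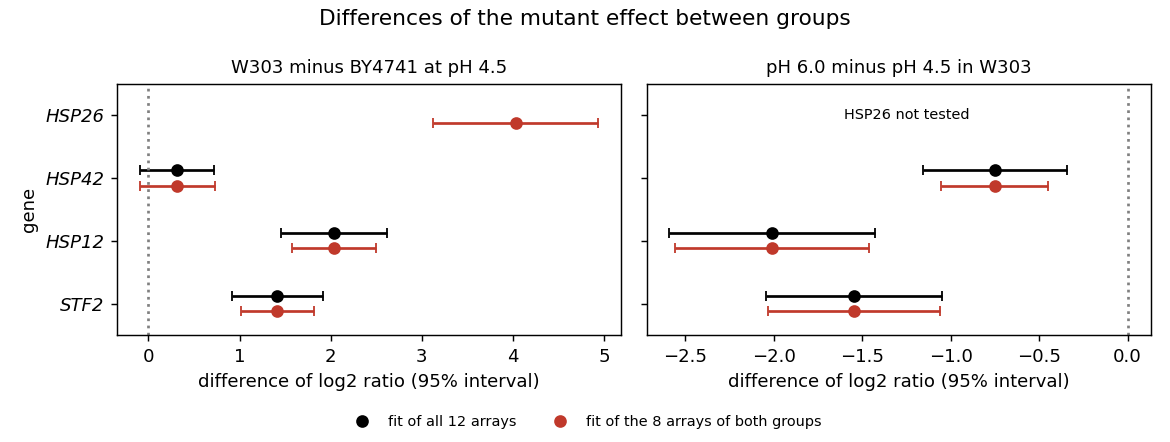
Difference between groups in the log2 ratio of mutant over wild type (horizontal axis, with 95% interval), from the fit of 12 arrays (black) and from that of the 8 arrays of both groups (red). HSP12 and STF2 lie clear of 0 in both comparisons, HSP42 only in the comparison of media, and HSP26 could be tested only between backgrounds in the fit of 8 arrays.

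Related stress genes were read from 5 lists drawn up with results of these data known. Among 21 other genes of the Msn2 and Msn4 response, 15 of the 18 tested were higher in the mutant in W303 at pH 4.5 and none lower, with a median log2 ratio of 1.32 against 0.03 over all genes. Of all genes tested in that group, 36.1% were higher and 33.1% lower. The largest were MSC1 at 2.81, PGM2 (phosphoglucomutase) at 2.71 ± 0.09 (SE) and GLK1 (glucokinase) at 2.58 ± 0.08. In BY4741, 7 of 19 were higher and none lower (median 0.37), against 15.9% and 15.4% of all genes, led by MSC1 at 1.15, HXK1 (hexokinase) at 1.10 and ALD3 (aldehyde dehydrogenase) at 1.05. That count was 3 without BY4741 replicate 3 and 14 without replicate 4. Of all genes, 871 were called higher with all arrays, 412 without replicate 3 and 566 without replicate 4. On replicate 4, where HSP26 and HSP42 were below 0, 9 of these 19 genes were below 0 too, against 3, 0 and 1 on replicates 1 to 3, while HSP12 was at 1.70. The part of that array in the BY4741 values was not tested beyond leaving it out. At pH 6.0, 4 of 18 were higher (median 0.40), against 1.92% of all genes, led by MSC1 at 1.06 (limma adjusted p = 0.0128). That count was 0 without replicate 1, 2 or 4, and 2 with a dye term. The genes called higher among all 4856 tested fell as well, from 93 to 1, 17 and 2 without these replicates and to 62 with the dye term. Between groups, 13 of 18 had larger ratios in W303 than in BY4741 (median difference 0.90), against 10.9% of all genes, and 13 of 18 smaller ones at pH 6.0 than at pH 4.5 (median difference -0.97), against 13.2% of all genes.

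The next list held 20 chaperone genes of the heat shock factor Hsf1. In W303 at pH 4.5, 5 of 20 were higher and 5 lower, with a median of -0.08, against 36.1% and 33.1% of all genes. HSP78 and HSP104, the mitochondrial and cytosolic disaggregases, were higher, at 1.71 ± 0.06 (SE) and 1.52 ± 0.07, as was MDJ1 (a mitochondrial J-protein) at 0.46. The Hsp110 gene SSE1 was lower at -0.65, as were BTN2 (a sorter of misfolded proteins) and YDJ1 (a cytosolic J-protein), both at -0.50. In BY4741, 2 of 18 were higher, HSP10 at 0.45 and MDJ1 at 0.35, and 3 lower, the Hsp90 gene HSC82 at -0.74, the Hsp70 gene SSA2 at -0.71 and SSE1 at -0.56. Of all genes in BY4741, 15.9% were higher and 15.4% lower. Without replicate 2 of BY4741, 7 were lower, and 1 was higher without replicate 1, 2 or 3. All genes called in either direction fell from 1714 to 1214, 1398 and 747 without replicates 1, 2 and 3. At pH 6.0, 11 of 20 were lower and none higher, with a median of -0.65, against 1.44% and 1.92% of all genes. BTN2 was at -1.78 (limma adjusted p = 0.0334), the Hsp90 gene HSP82 at -1.37 (0.00718) and SSA2 at -1.32 (0.0107). That count was 0 without replicate 1 or 4, 1 without replicate 2 and 4 with a dye term. All genes called in either direction fell from 163 to 1, 2, 24 and 114 in these settings. HSP104 and HSP78 stood at 0.01 and 0.09 at pH 6.0, near HSP42. The ratio was smaller at pH 6.0 than at pH 4.5 for 13 of the 18 testable in both media (median difference -0.83), against 13.2% of all genes. It was larger in W303 than in BY4741 for 4 of 18, against 10.9% of all genes. That count was 1 of 18 without BY4741 replicate 4 or without replicate 3 or 4 of W303 at pH 4.5. All genes called larger fell from 517 to 287, 279 and 260 there.

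Of 8 osmotic stress genes, 6 were tested. In W303 at pH 4.5, 5 were higher, led by GRE3 (aldose reductase) at 1.38, DAK1 (dihydroxyacetone kinase) at 1.10 and GPD1 (glycerol 3-phosphate dehydrogenase) at 0.77, and GPP1 (glycerol phosphatase) was lower at -0.38, where 36.1% of all genes were higher and 33.1% lower. In BY4741, where those shares were 15.9% and 15.4%, GRE3 at 0.61, DAK1 at 0.59 and GRE2 at 0.25 were higher and GPP1 lower at -0.25. Without replicate 1 or 3 of BY4741 only 1 gene was higher, where all genes called higher fell from 871 to 634 and 412. GPP1 lost its call without replicate 1, 3 or 4. At pH 6.0 none of the 6 passed limma's adjusted p, as 3.36% of all genes did, and their mean ratios ran from 0.29 to 0.54. Among 5 relatives of the hydrophilins and of STF2, INH1, the inhibitor of the mitochondrial ATP synthase, was higher at 1.32 in BY4741 and 0.96 in W303 at pH 4.5. TMA10, the paralog of STF2, was higher in BY4741 at 0.54 but stood at 0.12 in W303 at pH 4.5 (limma adjusted p = 0.102), where STF2 was at 2.12. The hydrophilin gene YJL144W was at 0.94 and YNL190W at 0.28 there. Of the relatives tested, 2 of 4, 3 of 4 and 0 of 3 were higher in BY4741, in W303 at pH 4.5 and at pH 6.0 respectively, against 15.9%, 36.1% and 1.92% of all genes.

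Of 10 regulator genes, 1 of the 8 tested in BY4741 passed the test, 5 of 10 in W303 at pH 4.5 and 0 of 9 at pH 6.0, against 31.4%, 69.2% and 3.36% of all genes. The stress factor gene MSN2 stood at 0.16, 0.20 and 0.09 in BY4741 and in W303 at the lower and the higher pH, and MSN4 at 0.27, -0.06 and -0.03. None of these passed the threshold, though MSN2 in W303 at pH 4.5 was close to it (limma adjusted p = 0.0508). HOG1 was lower in BY4741 at -0.26 (limma adjusted p = 0.0251) and in W303 at pH 4.5 at -0.24 (0.00723), and stood at -0.34 at pH 6.0 (0.121), with its BY4741 call lost without replicate 1, 3 or 4. In W303 at pH 4.5 the kinase genes YAK1 and RIM15 were higher at 0.72 and 0.17, BCY1, the inhibitory subunit of protein kinase A, at 0.52, and HOT1, a transcription factor of the Hog1 pathway, lower at -0.17 (limma adjusted p = 0.0414). There 2 regulators were lower, but 1 with a dye term or without replicate 1, 3 or 4. The number higher was 3, but 4 with array quality weights or without replicate 1 or 2, and 2 without replicate 3 or 4. In the same group HSF1 was at 0.12, SKO1 at 0.03 and GIS1 at -0.0005, none of them past the threshold.

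**Figure D3:**
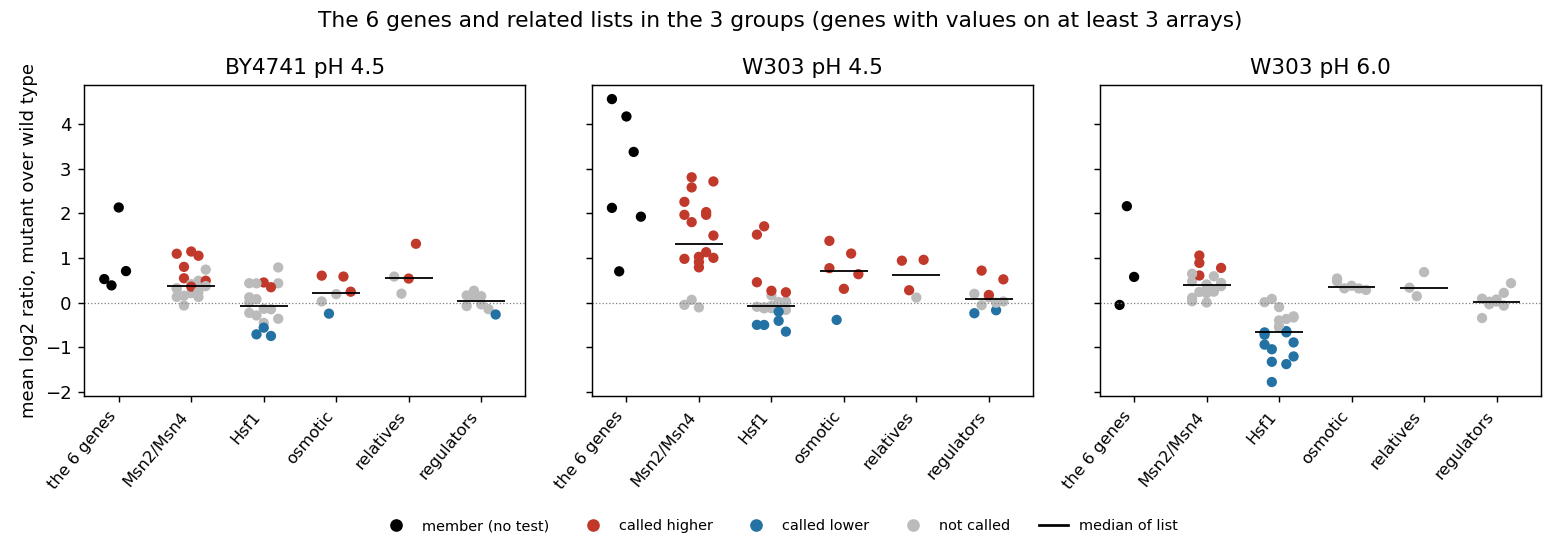
Mean log2 ratio of mutant over wild type (vertical axis) in the 3 groups for the 6 genes and for the genes of each of 5 related lists, 1 point a gene coloured by its limma call, with the list median as a line. The Msn2 and Msn4 genes lie mostly above 0 in W303 at pH 4.5, with a median of 1.32, and the Hsf1 chaperone genes mostly below 0 at pH 6.0, with a median of -0.65.

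The genes whose ratios ran closest to those of the 6 were sought by the root mean square difference of the log2 ratio over shared arrays. The genes searched were those outside the 6 with a symbol in RefSeq's R64 annotation and at least 10 shared arrays. Genes without a symbol were left out. Of the 6, only those with a mean over all arrays of at least 1 in size were used, which left out HSP42 at 0.35. HSP26, SIP18 and GRE1 had values on 9, 5 and 5 arrays, too few for 10 shared arrays. HSP12 and STF2 met both conditions. Closest to HSP12 was SPI1, a gene of a cell wall protein, with a difference of 0.63 over 12 arrays and group means of 1.69, 4.43 and 2.31. GPG1 followed at 0.94 and CIT2, the peroxisomal citrate synthase gene, at 0.99. Closest to STF2 were HXK1 at 0.28, NOP1, a nucleolar methyltransferase gene, at 0.30 and TSL1, a trehalose synthase subunit gene, at 0.31, over 12, 12 and 11 arrays. NOP1 had group means of 0.92, 2.13 and 0.80. Likeness here describes ratios on the same arrays.

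The 6 genes lie on 6 different chromosomes, so none neighbours another. In the gene order of RefSeq's R64 annotation they have 12 direct neighbours, examined after the data were seen. Of the 9 neighbours testable in W303 at pH 4.5, 5 were higher and 1 lower, against 36.1% and 33.1% of all genes. YFL015C, which starts divergently beside HSP12, was at 3.57, from 2.98 to 4.57 over 4 arrays (limma adjusted p = 1.9e-06), and at 1.26 in BY4741 (0.0150). The proteinase inhibitor gene PAI3, divergent from SIP18, was at 2.11, from 1.76 to 2.33 (limma adjusted p = 3.4e-07), and FMP40, divergent from GRE1, at 0.56 over 3 arrays (6.9e-04). SEC9, in tandem upstream of STF2, was at 0.41 (limma adjusted p = 0.00105) and IES1, convergent with HSP12, at 0.21 (0.0231), while ECT1, convergent with STF2, was lower at -0.26 (0.0123). YBR071W, in tandem upstream of HSP26, was at 0.01, MMT2 beside GRE1 at 0.09 and SUP35 beside HSP42 at -0.18, none past the threshold. The sources used here do not say whether the probes tell the strands apart, so signal shared between a gene and an overlapping transcript was not tested. In BY4741, 1 of 7 testable neighbours was higher, against 15.9% of all genes, and at pH 6.0 none of 6 passed, against 3.36%. The divergent neighbours YFL015C, PAI3 and FMP40 were not among those 6. Each had 1 value at pH 6.0, at 2.74, 1.03 and 0.405. PAI3 and FMP40 also had 1 value each in BY4741, at 0.60 and 0.64, and were not tested there.

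**Figure D4:**
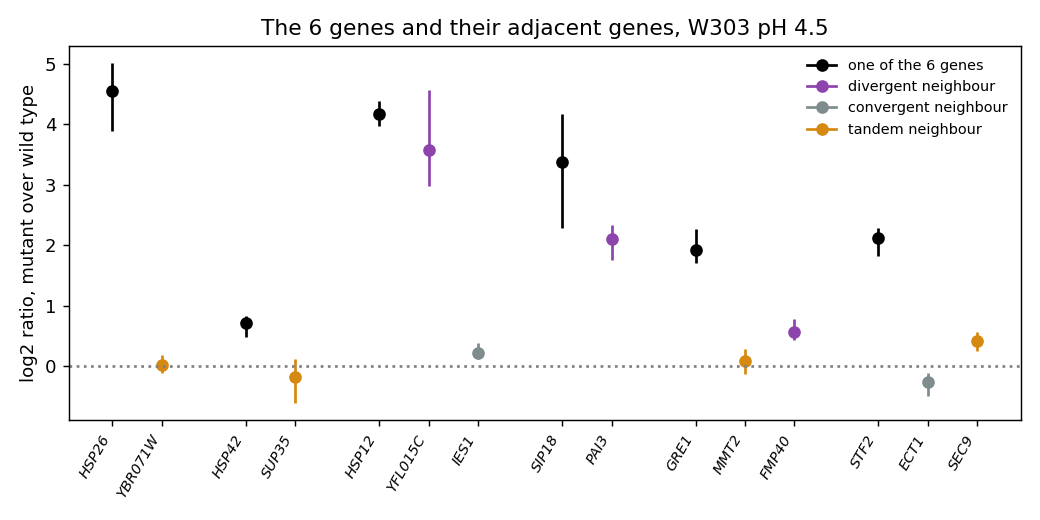
Log2 ratio of mutant over wild type in W303 at pH 4.5 (vertical axis, mean and range over arrays) for each of the 6 genes and its direct chromosomal neighbours with values. The divergent neighbours YFL015C and PAI3 stand at 3.57 and 2.11, beside HSP12 at 4.17 and SIP18 at 3.38, and the other neighbours lie between -0.26 and 0.56.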

How the data were processed

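The deposited values are one log ratio of the 2 dyes per open reading frame and array, read here as log2, and repeat spots had already been merged when the authors deposited them. The normalisation, spot filter and image software are not given in the sources used here. Each array median lay within 0.035 of 0. No intensities were used, so signal over background is unknown, and the 4 arrays of a group limit the precision. Arrays with the mutant in Cy3 (5 of 12) had their sign turned.

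Genes with at least 3 values in a group were tested with limma 3.58.1 (lmFit and eBayes, R 4.3.3), two-sided, instead of the authors' one-class SAM, with Benjamini-Hochberg adjustment over all genes and a threshold of 0.05. Differences between groups were contrasts in one fit of 12 arrays, over genes that had at least 3 values per group. The procedure was tested on simulated data. Alternatives were all 4 arrays or a minimum of 2, centring, a dye term, array quality weights, a replicate block, the 2 groups alone and leaving out each array.

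The 6 genes and the 5 lists were chosen with earlier results of these data known. Named from the lists were up to 3 genes past the threshold with the largest rise and fall per group, and every regulator. Of the 5994 reading frames, 5457 matched RefSeq's R64 table by locus tag and 4981 had a symbol there.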

Additional observations from a re-analysis of the deposited data

Results flagged for a closer look

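In the fit of 12 arrays, where HSP12, STF2 and HSP42 could be tested, these differences of the mutant effect between groups passed limma's threshold. The genes were chosen with the ratios behind these tests known, so the tests are no independent evidence. HSP12 had a larger log2 ratio in W303 than in BY4741 at pH 4.5, by 2.04, and STF2 by 1.42. In W303 the ratio at pH 6.0 minus that at pH 4.5 was -2.01 for HSP12, -1.55 for STF2 and -0.75 for HSP42. HSP26, testable only between backgrounds in the fit of 8 arrays, differed by 4.03. In each of these differences the 4 arrays of W303 at pH 4.5 lay above all 4 arrays of the other group. Of all genes measured on every array of both groups, 20.2% did so against BY4741 and 14.0% against pH 6.0. Among all genes tested, 20.4% passed between backgrounds and 24.0% between media in either direction, and 38.1% between backgrounds in the fit of 8 arrays. No array of a group of 4 stood apart by Dixon's test for any of the 6 genes. With 4 values that test has little power, so it does not show that the arrays were alike. HSP26 in BY4741, for example, ran from -0.75 to 1.46.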

How the results depend on the processing

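Of 114 recomputed differences of HSP12, STF2 and HSP42, 113 kept their direction and their side of the threshold. The exception was HSP42 between backgrounds, which passed with array quality weights (0.46, limma adjusted p = 0.0188). In several settings the difference itself could not change, as when an array outside the 2 groups compared was left out. There only the adjusted p could move, so the count overstates how far direction was tried. The largest adjusted p on leaving out 1 array was 0.00316 and 0.00217 for HSP12 (backgrounds, media), 0.0101 and 0.00365 for STF2, and 0.0422 for HSP42 between media. Counts over all genes moved more. The 971 genes that differed between backgrounds became 2213 with array quality weights and 2012 with the 2 groups alone, and the 163 genes of W303 at pH 6.0 became 479 with the weights, the cause of which was not tested. On leaving out 1 array the counts ran from 747 to 1398 in BY4741 (1714 with all arrays), 3229 to 3711 in W303 at pH 4.5 (3807), 1 to 379 in W303 at pH 6.0, 441 to 1461 between backgrounds and 730 to 1511 between media (1139). Same-numbered arrays of different groups had correlations of their deviations from -0.41 to 0.24, over 0.1 in 4 of 12 pairs. They were not compared with differently numbered arrays, and several pairs carried opposite dyes. Whether the replicate numbers pair the arrays was therefore not tested. With the replicate block 717 genes differed between backgrounds and 986 between media, and no call of HSP12, STF2 or HSP42 changed. Of 550 list counts recomputed after seeing the data, 63 moved by over 1.5 times, or to or from 0. Many of the 550 were 0 in the main fit and in most settings, and others left out an array outside the 2 groups compared. Such counts had little room to move, so 63 of 550 understates how far the other counts depended on the processing.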

Other observations

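The Hsf1 chaperone genes had a median below 0 on each of the 4 arrays at pH 6.0, at -0.71, -0.68, -0.48 and -0.70 on replicates 1 to 4, with 17 to 19 of 20 genes below 0, whichever dye carried the mutant. HSP12 was above 1 on the same arrays. On BY4741 replicate 4 the chaperone median was -0.41, with 15 of 18 genes below 0, and the Msn2 and Msn4 genes had a median of 0.005, against 0.45, 0.77 and 0.53 on replicates 1 to 3.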
